A study of Homo sapiens with 18 samples.

Results

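TLE3 and FOXA1 were mapped by chromatin immunoprecipitation and sequencing (ChIP-seq) in T47D, an estrogen receptor positive luminal breast cancer line, and 2502 regions of that line carried both factors within 1 kb of an end of a protein-coding gene. A region entered this set when it held a TLE3 peak of both T47D replicates, overlapped a region with a FOXA1 peak of both replicates, and was centred no more than 1 kb from the start or far end of a protein-coding gene on hg38. The members were thus chosen by the presence of peaks in the 4 T47D libraries, with no use of the 8 libraries of the other lines. These regions, called gene-end sites here, were 10.1% of the 24661 T47D sites with both factors, out of 198087 merged TLE3 and FOXA1 sites over the 3 lines of the study. They touched 2773 of 19970 protein-coding genes, a background share of 13.9%.

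The study compared 3 established breast cancer lines. T47D is set against MDA-MB-453, an estrogen receptor negative line, and SKBR3, a line with amplified ERBB2. Each line had 2 libraries of FOXA1 and 2 of TLE3, which the labels call biological replicates without saying how the cultures were separated, so p-values measure the spread between these libraries. No treatment or genetic change is given, and TLE3 cells alone in all lines received an added crosslinker before formaldehyde, so the chemistry of fixation and the factor cannot be told apart. The 6 input samples were not analysed here.

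FOXA1 is a forkhead factor that can bind its site on nucleosomal DNA and keeps luminal enhancers accessible. TLE3 belongs to the Groucho family of corepressors, which have no DNA-binding domain of their own and are carried to genes by partner factors such as TCF/LEF, HES, RUNX and forkhead proteins, where they recruit deacetylases. In breast cells most FOXA1 binding is at enhancers far from genes, so sites at a gene's own start are the uncommon kind.

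Depth is unknown, since the lists hold peaks and no reads. Between 21149 and 188029 peaks per list lay on the autosomes and X. The library labelled SKBR3 TLE3 replicate 2 stood apart. Of its peaks, 7.54% overlapped a peak of replicate 1, and 33.9% the other way, whereas in the other 5 groups the share was 46.3% or more in each direction. Its list was also much longer, with 94363 peaks against 21149 in replicate 1. That inequality limits the first share, which was not corrected for list length. Shares and counts that use this library are given with and without it.

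The DNA at the gene starts differed in kind, and 6 promoters show the range. Each is a RefSeq window on GRCh38.p14 from 250 bases before to 50 bases after the annotated start, printed 5′ to 3′ on the gene's strand, and each is overlapped by a T47D site with both factors. The first set shows the letters TGTTTAC or TATTTAC, versions of the core that forkhead proteins recognise, in capitals on either strand. They are IGF1 (chr12:102481698-102481997, minus strand), the gene of the highest ranked TLE3 site, SPDEF (chr6:34556280-34556579, minus strand), a luminal ETS factor, MYB (chr6:135181058-135181357, plus strand), an estrogen-responsive transcription factor, and JUNB (chr19:12791236-12791535, plus strand), an AP-1 subunit.
IGF1: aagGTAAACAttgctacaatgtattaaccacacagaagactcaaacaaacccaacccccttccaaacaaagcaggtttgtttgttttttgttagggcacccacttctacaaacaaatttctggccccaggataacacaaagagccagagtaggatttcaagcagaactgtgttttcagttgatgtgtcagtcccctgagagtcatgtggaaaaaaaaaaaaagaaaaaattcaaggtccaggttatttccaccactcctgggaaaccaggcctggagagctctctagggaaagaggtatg
SPDEF: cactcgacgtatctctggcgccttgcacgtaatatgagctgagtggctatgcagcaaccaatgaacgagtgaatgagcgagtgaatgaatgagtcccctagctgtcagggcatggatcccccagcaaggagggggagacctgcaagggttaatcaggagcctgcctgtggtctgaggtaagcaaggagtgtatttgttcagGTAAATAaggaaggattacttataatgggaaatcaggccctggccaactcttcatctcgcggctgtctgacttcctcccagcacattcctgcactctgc
MYB: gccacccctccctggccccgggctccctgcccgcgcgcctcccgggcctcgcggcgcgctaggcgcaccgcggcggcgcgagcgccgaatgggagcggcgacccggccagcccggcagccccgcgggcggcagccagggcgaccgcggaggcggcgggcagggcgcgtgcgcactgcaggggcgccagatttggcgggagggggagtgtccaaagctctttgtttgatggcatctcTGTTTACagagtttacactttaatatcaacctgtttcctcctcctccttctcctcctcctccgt
JUNB: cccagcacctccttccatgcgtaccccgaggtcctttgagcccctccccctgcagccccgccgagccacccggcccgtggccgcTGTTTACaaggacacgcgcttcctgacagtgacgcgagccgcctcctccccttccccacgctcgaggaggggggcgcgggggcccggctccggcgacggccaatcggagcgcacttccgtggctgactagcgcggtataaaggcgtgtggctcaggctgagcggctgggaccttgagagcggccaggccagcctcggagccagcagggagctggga
The second set has neither version of the forkhead letters, and capitals mark each CpG, the pair of bases that is dense in CpG islands. They are FOXA1 itself (chr14:37595200-37595499, minus strand) and TLE1 (chr9:81689498-81689797, minus strand), a Groucho corepressor related to TLE3.
FOXA1: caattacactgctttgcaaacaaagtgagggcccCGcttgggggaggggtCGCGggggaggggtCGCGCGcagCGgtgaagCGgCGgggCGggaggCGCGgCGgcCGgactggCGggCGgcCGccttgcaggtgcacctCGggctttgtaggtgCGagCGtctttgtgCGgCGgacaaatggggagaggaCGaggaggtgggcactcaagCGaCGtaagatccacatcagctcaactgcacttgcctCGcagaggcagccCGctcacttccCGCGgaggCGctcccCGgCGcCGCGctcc
TLE1: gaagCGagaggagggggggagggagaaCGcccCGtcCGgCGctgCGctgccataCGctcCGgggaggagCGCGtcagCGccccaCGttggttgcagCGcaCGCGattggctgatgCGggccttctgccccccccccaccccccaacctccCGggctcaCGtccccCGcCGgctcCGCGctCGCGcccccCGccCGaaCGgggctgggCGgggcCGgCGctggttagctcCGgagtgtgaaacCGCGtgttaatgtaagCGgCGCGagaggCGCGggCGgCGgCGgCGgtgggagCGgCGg
The IGF1 window had a GC content of 42.3% and no CpG, SPDEF 52.0% and 8 CpGs, MYB 71.0% and 35, JUNB 71.0% and 29, FOXA1 69.3% and 34, and TLE1 76.0% and 44. The forkhead letters of MYB and JUNB thus stand in windows with a GC content between those of FOXA1 and TLE1, which lack TGTTTAC and TATTTAC. Other versions of the forkhead core were not searched and may be present.

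Most gene-end sites lay at gene starts. The strand was taken from the promoter table, which matched 15812 of the 19970 genes. By it 1678 sites were near a start, 261 near the far end, 60 near both a start and a far end, and 503 near genes without a strand. Of the 1678 start sites, 961 had their centre upstream and 715 downstream of the annotated start, and 2 sat on it. Their median position was 54 bases upstream (-54 bp), and 58.2% were within 250 bp. Of 887 T47D TLE3 sites at starts that overlapped no FOXA1 site, 67.3% were within 250 bp. Having no FOXA1 site means no FOXA1 peak of both replicates. Of all 1140 gene-end TLE3 sites of this kind, 532 had a peak of T47D FOXA1 replicate 1 and 55 of replicate 2. A single start is taken per gene, so a site at an inner start counts as far or as no gene-end site at all.

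**Figure D1:**
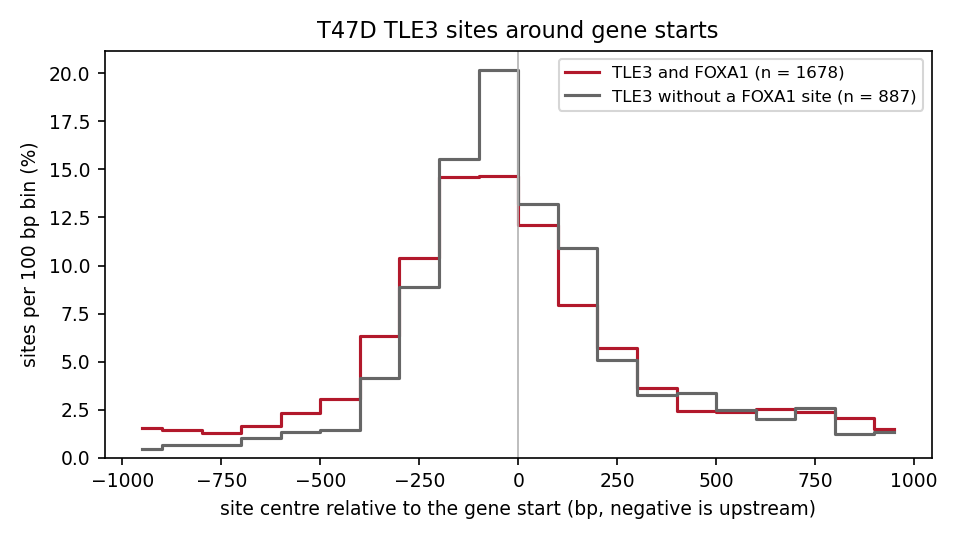
Position of T47D TLE3 site centres relative to the annotated gene start, in bins of 100 bp, as the percent of the 1678 start sites with FOXA1 (red) and the 887 without a FOXA1 site of both replicates (grey). Both sets peak just upstream of the start, the grey one more narrowly.

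Of the 2502 sites, 2138 were near 1 protein-coding gene and 364 near 2 or more. Among these, 214 sites were near the starts of 2 or more genes, whose strands were not compared. Only 101 genes had 2 or more sites, with 3 the most for any gene. The sites were wide, with a median width of 751 bp against 581 bp for the 22159 T47D sites with both factors away from gene ends. By score the gene-end sites ranked lower. The score is the authors' value per peak, whose quantity is not named, and it is given here only as a percentile within its own list. In T47D TLE3 replicate 1 the median percentile was 41.7 at gene ends and 58.6 elsewhere, and in replicate 2 it was 72.3 and 79.5. For T47D FOXA1 it was 76.9 and 89.4 in replicate 1 and 74.9 and 87.8 in replicate 2. In all 4 T47D lists, then, sites of both factors at gene ends stood below those elsewhere. These percentiles come from the lists that chose the sites and are a description. By chromosome, sites were densest for their genes on chromosome 12, with 18.1 per 100 protein-coding genes, and sparsest on X, with 5.19.

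The binding of the other lines was not used to choose the sites. At gene ends FOXA1 was widely shared with MDA-MB-453. A peak of MDA-MB-453 FOXA1 replicate 1 overlapped 94.4% of the gene-end sites (89.3% of all T47D sites with both factors), and replicate 2 overlapped 87.9% (86.0% of all). SKBR3 FOXA1 reached fewer, 65.7% in replicate 1 and 68.7% in replicate 2, against 75.2% and 77.4% of all sites. TLE3 was shared less. MDA-MB-453 TLE3 replicate 1 overlapped 41.6% and replicate 2 20.3% of the gene-end sites, where 64.4% and 45.5% of all T47D sites with both factors were overlapped. SKBR3 TLE3 replicate 1 overlapped 24.4%, against 38.3% of all. The reverse held in the library labelled SKBR3 TLE3 replicate 2, with 72.7% of gene-end sites and 28.1% of all.

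Set against the 22159 other sites with both factors, 3 of 4 TLE3 libraries had fewer peaks at gene ends. The difference was -25.3 and -28.0 percentage points in MDA-MB-453 and -15.5 in SKBR3 replicate 1, against 49.6 for the library labelled SKBR3 TLE3 replicate 2. The mean over the 4 was -4.79 ± 36.6 percentage points (SD, n = 4, exact two-sided sign-flip permutation p = 0.875, adjusted p = 0.889 over 5 tests). With the library labelled SKBR3 TLE3 replicate 2 left out, the mean was -22.9 ± 6.59 (SD, n = 3, exact sign-flip p = 0.25). It was 2.04 or 2.93 with replicate 1 or replicate 2 of MDA-MB-453 TLE3 left out, and -1.24 with SKBR3 TLE3 replicate 1 left out. With 4 libraries this test cannot go below 0.125 and with 3 not below 0.25, so neither contrast could pass 0.05.

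FOXA1 differed in sign between the lines. In MDA-MB-453 the gene-end share was higher than elsewhere by 5.64 and 2.14 percentage points, and in SKBR3 it was different by -10.6 and -9.71. The mean over the 4 libraries was -3.14 ± 8.25 (SD, n = 4, exact two-sided sign-flip permutation p = 0.5, adjusted p = 0.889). Both replicates of a line gave the same sign, and the difference between the lines was not tested. It was lost with every list cut to its 21149 highest scores, where the differences were -1.51 and -4.53 in MDA-MB-453 and -2.32 and -6.06 in SKBR3. The FOXA1 mean was -0.65 without SKBR3 FOXA1 replicate 1, -0.95 without SKBR3 FOXA1 replicate 2, -6.07 and -4.90 when replicate 1 or replicate 2 of MDA-MB-453 FOXA1 was left out, -8.43 without T47D FOXA1 replicate 2 and -5.13 without T47D TLE3 replicate 2. The TLE3 contrast minus the FOXA1 contrast was -1.65 percentage points by exact permutation of factor labels within lines (p = 0.889, adjusted p = 0.889). Leaving out the library labelled SKBR3 TLE3 replicate 2 gave -17.9, at p = 0.0556, the smallest the 18 arrangements of this exact permutation can give.

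**Figure D2:**
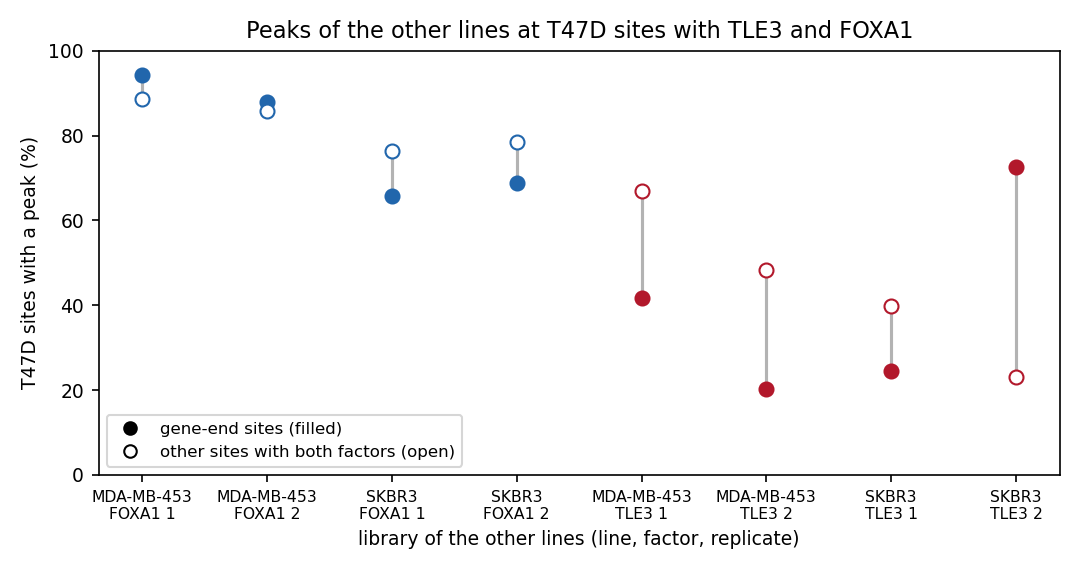
Percent of T47D sites with both factors that a peak of each library of the other lines overlaps, at the 2502 gene-end sites (filled) and the 22159 other sites (open), FOXA1 in blue and TLE3 in red. The filled point is below the open one in 3 of 4 TLE3 libraries and in both SKBR3 FOXA1 libraries, but far above it for the library labelled SKBR3 TLE3 replicate 2.

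The shift with distance from a gene end was gradual and did not begin at 1 kb. For MDA-MB-453 TLE3 replicate 1 the share of T47D sites with a peak was 34.7% within 250 bp, 45.8% from 250 to 500 bp, 54.6% from 500 to 1000 bp, 59.7% from 1 to 3 kb, and 69.2% beyond 50 kb. Replicate 2 went from 15.0% within 250 bp to 50.9% beyond 50 kb. SKBR3 TLE3 replicate 1 stood at 20.3% within 250 bp, 42.8% from 3 to 10 kb and 37.9% beyond 50 kb. The library labelled SKBR3 TLE3 replicate 2 fell from 76.5% to 16.4% over the same range. SKBR3 FOXA1 was at 62.4% and 66.2% within 250 bp and highest from 3 to 10 kb, at 79.6% and 81.0%. Just inside the 1 kb limit, 83 sites had their centre 900 to 1000 bp from an end, and just outside it 100 sites had theirs at 1001 to 1100 bp. MDA-MB-453 TLE3 replicate 1 overlapped 60.2% of the former and 59.0% of the latter, and replicate 2 34.9% and 38%. The library labelled SKBR3 TLE3 replicate 2 was at 49.4% and 52%. SKBR3 FOXA1 was higher just inside, at 80.7% and 83.1% against 70% and 72% just outside. SKBR3 TLE3 replicate 1 was too, at 34.9% against 27%. For these SKBR3 libraries the step at the limit ran opposite to their gene-end contrast. The sites nearest the limit were at RALGPS2 and BHLHE40 inside (998 bp each) and at THRSP (1003 bp) and FMO1 (1004 bp) outside.

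**Figure D3:**
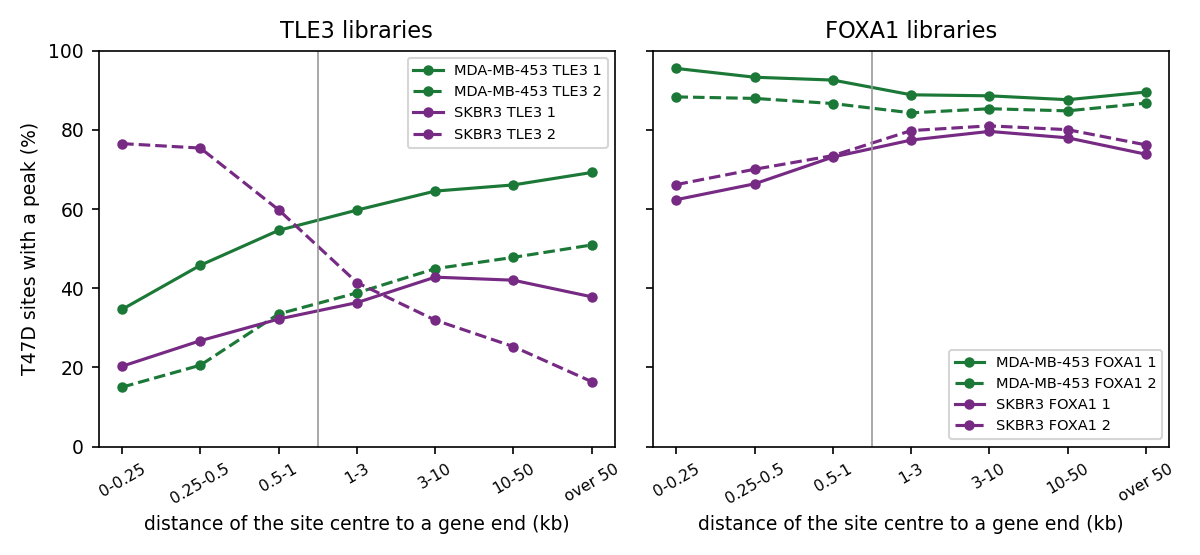
Percent of the 24661 T47D sites with both factors that hold a peak of each library of the other lines, by distance in kb from the site centre to the closest gene end, with the 1 kb limit as a grey line. The shares of 3 TLE3 libraries rise from the first bin to the bin at 3 to 10 kb, that of the library labelled SKBR3 TLE3 replicate 2 falls throughout, and MDA-MB-453 FOXA1 stays between 84.3% and 95.5%.

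Start sites and far-end sites were compared in the same way. MDA-MB-453 TLE3 overlapped 37.6% and 16.6% of the 1678 start sites in its 2 replicates, and 65.9% and 42.1% of the 261 far-end sites. For SKBR3 TLE3 replicate 1 the shares were 21.2% and 40.2%. Away from gene ends these 3 libraries stood at 66.9%, 48.3% and 39.9%, nearer the far-end values. SKBR3 FOXA1 overlapped 63.5% and 67.8% of start sites and 81.2% of far-end sites in each replicate, whereas MDA-MB-453 FOXA1 overlapped 95.8% and 89.5% of start sites and 88.9% and 84.7% of far-end sites. Start minus far end averaged -8.34 ± 32.1 percentage points for TLE3 (SD, n = 4, exact sign-flip permutation p = 0.625) and -4.86 ± 12.5 for FOXA1 (SD, n = 4, exact sign-flip permutation p = 0.5), each with an adjusted p of 0.889. With the library labelled SKBR3 TLE3 replicate 2 left out, the TLE3 mean was -24.3 ± 4.73 (SD, n = 3, exact sign-flip p = 0.25, the smallest possible). The TLE3 mean was -1.69 without MDA-MB-453 TLE3 replicate 1, -2.62 without MDA-MB-453 TLE3 replicate 2 and -4.77 without SKBR3 TLE3 replicate 1. The FOXA1 mean ran from -10.1 without T47D FOXA1 replicate 2 to -0.58 without SKBR3 FOXA1 replicate 1, and was -2.01 without SKBR3 FOXA1 replicate 2, -8.78 and -8.08 when replicate 1 or replicate 2 of MDA-MB-453 FOXA1 was left out.

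Counted as sites, which need a peak of both replicates, 2202 of the 2502 (88.0%) held a FOXA1 site of MDA-MB-453, against 85.6% of all T47D sites with both factors, and 1537 (61.4%) held one of SKBR3, against 73.1%. FOXA1 sites of both other lines were at 1462 (58.4%), of MDA-MB-453 alone at 740 (29.6%), of SKBR3 alone at 75 (3.00%), and of neither at 225 (8.99%). A TLE3 site of MDA-MB-453 was at 493 (19.7%, against 45.2% of all). A TLE3 site of SKBR3 was at 446 (17.8%, against 14.5%), and a peak of SKBR3 TLE3 replicate 1 at 611 (24.4%, against 38.3%). The most common arrangement at gene ends was a FOXA1 site in all 3 lines and a TLE3 site in T47D alone. It was at 879 sites (35.1%), compared with 23.2% of the other sites. TLE3 peaks found in a single replicate of another line can still lie there. Judged by SKBR3 TLE3 replicate 1 in place of both replicates, that arrangement was at 829 sites (33.1%), against 16.7% of the other sites. Both factors in all 3 lines were found at 187 sites (7.47%, against 8.84%), or at 275 (11%, against 26.6%) judged by replicate 1. A peak of each of the 8 libraries of the other lines was at 194 sites (7.75%), against 9.21% of the other sites. Without the library labelled SKBR3 TLE3 replicate 2, a peak of all 7 that remain was at 274 sites (10.95%), against 26.6%. No peak of any of the 8 libraries of the other lines was at 37 sites (1.48%), against 5.06%. Over the 7 libraries without the one labelled SKBR3 TLE3 replicate 2, it was 68 sites (2.72%), against 5.41%.

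The 1140 T47D gene-end TLE3 sites without a FOXA1 site of both replicates were read in the same way. MDA-MB-453 FOXA1 overlapped 62.6% and 32.5% of them, SKBR3 FOXA1 9.04% and 11.7%, and MDA-MB-453 TLE3 20.5% and 5.79%. Each of these is below the value at gene-end sites with both factors. SKBR3 TLE3 replicate 1 overlapped 14.6%, and the library labelled SKBR3 TLE3 replicate 2 overlapped 80.9%, more than at the sites with both factors.

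The forkhead letters searched, TGTTTAC and TATTTAC, were uncommon in the promoters. Of 14540 promoter windows of protein-coding genes, 1624 overlapped a T47D site with both factors, 813 a TLE3 site and no FOXA1 site, 2833 a FOXA1 site and no TLE3 site, and 9270 neither. Here too a site needs a peak of both replicates, and alone means without a site of the other factor. TGTTTAC or TATTTAC was present on either strand in 6.47% of the windows with both factors, 7.77% of those with FOXA1 alone, 0.123% (1 window) of those with TLE3 alone, 3.55% of those with neither, and 4.50% of all. The median GC content was 66.3% with both factors, 61.7% with FOXA1 alone, 71.7% with TLE3 alone and 63.0% over all windows, and the median number of CpGs was 28, 23, 34 and 22. AT-rich letters are rarer in GC-rich windows whatever binds there, so the shares were read within classes of GC content. In windows of 70% GC or more, 28 of 555 with both factors (5.05%) held the letters, against 18 of 427 with FOXA1 alone (4.22%), 0 of 479 with TLE3 alone and 6 of 2332 with neither (0.257%). Between 50% and 60% GC the shares were 9.93%, 8.74%, 1.89% and 4.06%. Windows with both factors thus stood near those with FOXA1 alone in each GC class from 50% upward, and below 50% they were at 18.3% against 23.2%. Windows of divergent genes overlap, so these counts are not all independent.

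**Figure D4:**
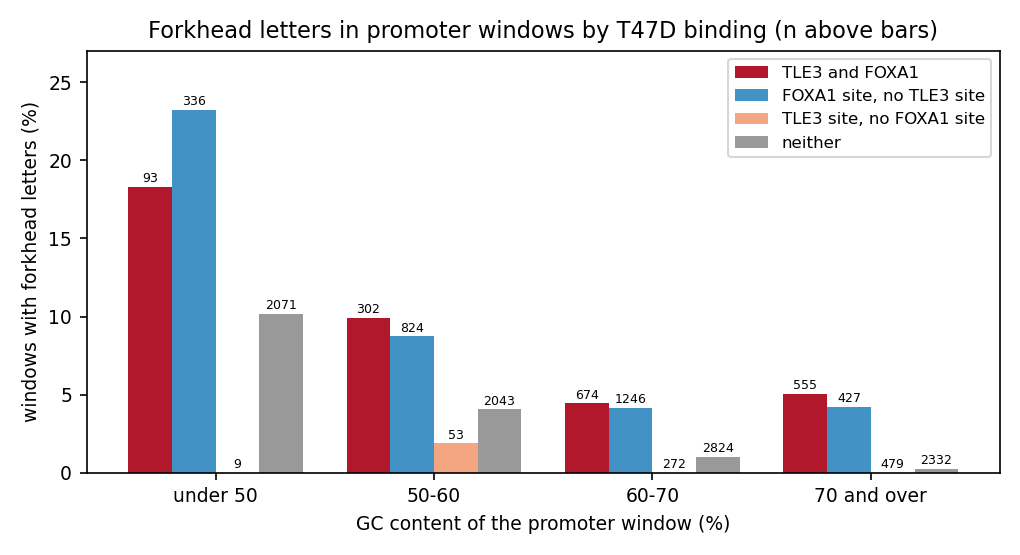
Percent of promoter windows holding TGTTTAC or TATTTAC on either strand, by GC content of the window and by T47D binding, with the number of windows above each bar. At 70% GC and over, the bars for both factors and for FOXA1 alone stand at 5.05% and 4.22%, and those for TLE3 alone and for neither at 0% and 0.257%.

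Other letters were searched in the same windows. The SP core GGGCGG was in 75.1% of windows with both factors and 59.1% of all, the NFY core CCAAT in 39.3% and 36.7%, the ETS core CCGGAAG in 17.1% and 14.7%, and the AP-1 core TGANTCA in 4.37% and 5.67%. The TATA letters TATAAA were in 6.28% and 9.77%, and the grainyhead core AACCNGTT in 1.54% and 1.61%. None of these is corrected for GC content. A match is only a match of letters, and no match says only that these letters are not in the window.

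FOXA1 peaks of both other lines and TLE3 peaks of MDA-MB-453 were more frequent at sites with the letters. Of gene-end sites with a window, 104 had forkhead letters there and 1365 had none. SKBR3 FOXA1 overlapped 93.3% and 95.2% of the 104 in its replicates, and 60.4% and 65.1% of the 1365. MDA-MB-453 FOXA1 overlapped 98.1% and 97.1% against 95.9% and 89.7%, and MDA-MB-453 TLE3 50% and 25% against 35.9% and 14.4%. SKBR3 TLE3 replicate 1 was at 24.0% and 20.4%, and the library labelled SKBR3 TLE3 replicate 2 at 74.0% and 82.3%. The gap was thus widest for SKBR3 FOXA1, with both replicates alike. It is a description over sites, was not tested and was not read within GC classes. The shares also changed with GC content. From windows under 60% GC to those of 70% or more, SKBR3 FOXA1 fell from 69.3% to 57.9% in replicate 1 and from 75.9% to 62.6% in replicate 2. The library labelled SKBR3 TLE3 replicate 2 rose from 67.3% to 90.3%.

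Among the individual genes, the highest ranked TLE3 site was at IGF1, which encodes a growth factor that drives proliferation of breast epithelium. The site (chr12:102481393-102482529, centre 122 bp from the start) was at percentiles 99.94 and 99.96 of the T47D TLE3 lists and 99.3 and 99.5 of the T47D FOXA1 lists. In MDA-MB-453 it was at 99.3 and 98.3 for TLE3 and 96.8 and 95.9 for FOXA1. In SKBR3 it was at 87.1 for TLE3 replicate 1, had no peak in replicate 2, and was at 91.1 and 93.0 for FOXA1. The IGF1 site was thus high in every list but that of the library labelled SKBR3 TLE3 replicate 2. It is the window printed above that holds no CpG.

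Next in rank came the shared ends of PTK2B, a focal adhesion kinase, and CHRNA2, a nicotinic receptor subunit, then the start of KRT4, a keratin of mucosal epithelium (chr12:52814066-52815239, percentiles 99.7 and 99.9 for T47D TLE3), the far end of the calcium channel gene RYR3, and MAP3K7CL. They were followed by DNPEP, an aspartyl aminopeptidase, TPRG1, CD3E, RP1 and WDR74. CD3E encodes a chain of the T cell receptor complex, and its site (639 bp from an end) was at 99.2 and 99.6 for T47D TLE3 and at 94.2 and 73.8 for MDA-MB-453 TLE3. With CD8A, it was 1 of 2 genes of other cell types, out of 27 listed, that had a gene-end site (7.41%, against 13.9% of all genes). Far-end sites ranked high also at UBXN7, FGF14, KRT39 and CSAD. HES1, the repressor through which NOTCH signals act and a known partner of Groucho proteins, had a site 3046 bp wide (chr3:194133629-194136674), the widest of the 2502, with its centre 996 bp from the start. It was at 98.8 and 98.9 for T47D TLE3 and at 99.9 for SKBR3 TLE3 replicate 1.

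Sites with both factors in all 3 lines, ranked by their mean percentile over the TLE3 lists, were led by MB, ABCC11, USP2, TRIB1 and P3H4. This order rests on the library labelled SKBR3 TLE3 replicate 2. Ranked over the other 5 TLE3 lists, with SKBR3 TLE3 replicate 1 in place of both, the leaders were PTK2B with CHRNA2 (mean percentile 98.8), TPRG1 (98.8) and DNPEP (98.5), with ABCC11 (97.4) at rank 6 and MB (97.3) at rank 7. MB encodes myoglobin, and its start site (chr22:35621991-35623639) lay between percentiles 93.1 and 99.5 in all 12 lists. ABCC11, a transporter of steroid conjugates expressed in apocrine glands, had a far-end site between 88.8 and 99.9. The start shared by FOXA1 and TTC6 (chr14:37595074-37596704, 640 bp from the FOXA1 start) was also in this set. It was at 94.0 and 97.7 for T47D TLE3, 94.4 and 91.4 for MDA-MB-453 TLE3, and 73.9 and 87.7 for SKBR3 TLE3, and between 84.6 and 92.1 in the 6 FOXA1 lists. FOXA1 thus had both factors at its own start in every line, with 14 further T47D sites with both factors within 50 kb. The TLE3 gene had a T47D site too (chr15:70097236-70098386, 106 bp from the start). That site was at 14.7 and 63.4 for T47D TLE3, had no MDA-MB-453 TLE3 peak and none of SKBR3 TLE3 replicate 1, and was at 63.1 in the library labelled SKBR3 TLE3 replicate 2.

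At the other extreme, sites without a peak in any library of the other lines were led by ZNF26, MANSC4, LIN28A, ADCY10 and MYCT1. Read without the library labelled SKBR3 TLE3 replicate 2, APRT came before these. BCOR, a corepressor of BCL6 and polycomb complexes, had a start site (chrX:40177362-40178005) at 78.2 and 89.5 for T47D TLE3 and 86.9 and 82.9 for T47D FOXA1, and no peak elsewhere. Among the 3 lines, the BCOR site thus had peaks in T47D alone. SRC, the tyrosine kinase, was in the same set at 68.7 and 87.0 for T47D TLE3.

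Genes were then read by list, as the share of a list's genes with a gene-end site against 13.9% of all protein-coding genes, with 39.2% of all genes having a T47D FOXA1 site at an end. The lists were chosen with earlier results of these data known, so the shares describe the lists and no test is given. The highest share was in luminal identity genes, with 17 of 24 (70.8%), of which 16 held a FOXA1 site of MDA-MB-453, 15 one of SKBR3, 8 a TLE3 site of MDA-MB-453 and 5 a SKBR3 TLE3 replicate 1 peak. They were FOXA1, GATA3, SPDEF, ELF3, KRT8, KRT18, KRT19, TFAP2A, TFAP2C, GRHL2, TBX3, MYB, PGR, ERBB3, CLDN4, MUC1 and AGR2. Genes of the list without a gene-end site included ESR1, EPCAM, CDH1, KRT7, XBP1 and TRPS1, and of these 6 only XBP1 and TRPS1 had a T47D FOXA1 site at an end. Basal identity genes had 3 of 20 (15.0%), namely TP63, ACTA2 and LAMB3.

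Each line can also be counted by its own sites. Both factors were at an end of 779 genes in MDA-MB-453 (3.90% of all) and 559 in SKBR3 (2.80%), or 819 (4.10%) with SKBR3 TLE3 replicate 1 alone in place of both replicates. Of the 24 luminal genes, 10 had such a site in MDA-MB-453, 5 in SKBR3 and 7 by replicate 1. Of the 26 immediate early genes it was 3, 6 and 6, and of the 17 ETS, grainyhead and OVOL genes 6, 4 and 5. A FOXA1 site, with or without TLE3, was at an end of 43.6% of all genes in MDA-MB-453 and 25.0% in SKBR3. Of the luminal genes, 21 and 19 had one.

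**Figure D5:**
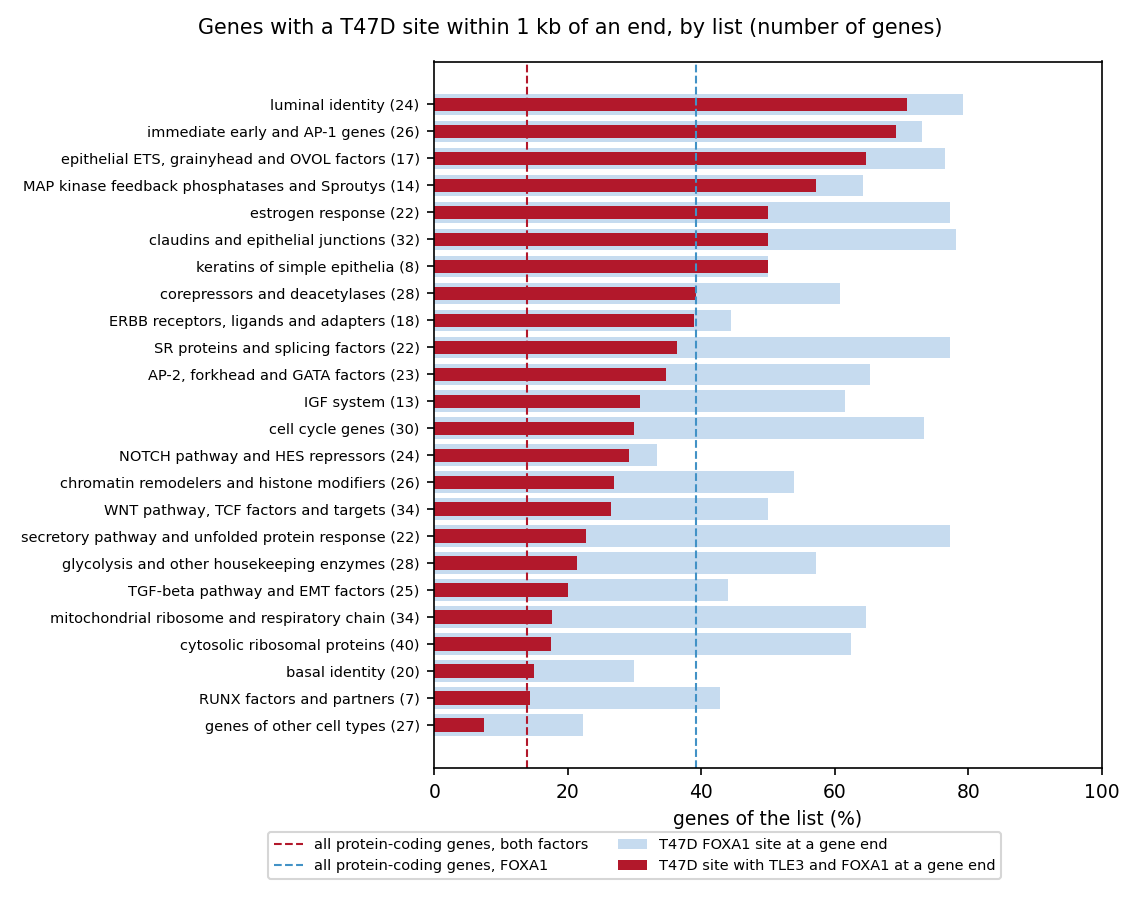
Percent of the genes of each list with a T47D FOXA1 site (pale) and with a T47D site of TLE3 and FOXA1 (red) within 1 kb of an end, with dashed lines at 39.2% and 13.9% for all protein-coding genes. Luminal identity, immediate early and ETS, grainyhead and OVOL genes stand highest in red, at 70.8%, 69.2% and 64.7%, and genes of other cell types lowest at 7.41%.

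SPDEF, the luminal ETS factor, had the highest ranked of the luminal sites (chr6:34555724-34556813). It was at 97.8 and 99.4 for T47D TLE3 and 99.8 and 99.9 for T47D FOXA1, at 78.2 and 47.2 for MDA-MB-453 TLE3, and at 83.7 and 68.8 for SKBR3 TLE3. All 12 libraries thus had a peak at SPDEF. KRT8 and KRT18, the keratin pair of simple epithelia, lie side by side and share 1 site (chr12:52948601-52949406). It was at 79.2 and 86.3 for T47D TLE3, 58.3 and 25.0 for MDA-MB-453 TLE3 and 46.7 and 34.9 for SKBR3 TLE3, again with a peak in every library. GATA3, the zinc-finger factor that specifies luminal cells, differed. Its site (chr10:8045003-8045423) was at 35.5 and 60.6 for T47D TLE3, at 53.6 in MDA-MB-453 TLE3 replicate 1 alone, and had no peak in any of the 4 SKBR3 libraries, while MDA-MB-453 FOXA1 was at 85.9 and 82.4.

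Estrogen response genes had 11 of 22 (50%), of which 8 held a FOXA1 site of MDA-MB-453, 6 one of SKBR3 and 2 a TLE3 site of MDA-MB-453. PGR, the progesterone receptor, had a start site (chr11:101128835-101129998) at 53.1 and 84.6 for T47D TLE3 and 87.8 and 89.7 for T47D FOXA1. MDA-MB-453 FOXA1 was at 29.98 and 33.0 there, and no TLE3 peak of either other line and no SKBR3 FOXA1 peak overlapped it. The E3 ligase gene SIAH2 had T47D TLE3 at 84.1 and 94.2 and no SKBR3 FOXA1 peak. CCND1, which encodes cyclin D1, was the shared case. It was at 89.7 and 95.8 for T47D TLE3, 76.9 and 25.4 for MDA-MB-453 TLE3, 78.9 and 53.2 for SKBR3 TLE3 and between 95.4 and 99.2 in the 6 FOXA1 lists. TFF1, a secreted trefoil peptide, was at 23.3 and 66.8 for T47D TLE3 and at 70.8 and 50.7 for MDA-MB-453 TLE3. The others were TFF3, GREB1, MYB, PDZK1, AREG, KCNK15 and CCN5.

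Immediate early and AP-1 genes, which are switched on within minutes of a growth signal, had 18 of 26 (69.2%), and 14 of the 18 were near a start. They included FOS, FOSB, FOSL2, JUN, JUNB and JUND of AP-1, KLF2, KLF4, KLF6 and KLF10, EGR1, IER2, IER3, IER5, ZFP36L1, ZFP36L2, MAFF and CCN1. A FOXA1 site of MDA-MB-453 was at 17 of the 18 and one of SKBR3 at 14, whereas a TLE3 site of MDA-MB-453 was at 3 and a SKBR3 TLE3 replicate 1 peak at 6. The JUNB start printed above (site chr19:12791136-12791648) was at 37.0 and 82.2 for T47D TLE3 and 97.3 and 97.9 for T47D FOXA1. In MDA-MB-453 it was at 11.4 in TLE3 replicate 1 alone and at 97.0 and 96.6 for FOXA1, and in SKBR3 it lacked a TLE3 replicate 1 peak and was at 85.8 and 87.2 for FOXA1. The KLF6 region (chr10:3784629-3785695) was at 57.4 and 84.8 for T47D TLE3 and 99.5 for FOXA1 in both T47D replicates. It had no TLE3 peak in MDA-MB-453, and FOXA1 in SKBR3 was at 0.8 in replicate 1 alone. The gene did have a SKBR3 FOXA1 site of both replicates centred within 1 kb of an end. As a list the immediate early genes had a median best T47D TLE3 percentile of 50.8 against 54.9 over all genes with a gene-end site, while the luminal list stood at 80.8.

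MAP kinase feedback genes, whose products switch the same signals off, had 8 of 14 (57.1%): DUSP1, DUSP4, DUSP6, DUSP10, SPRY1, SPRY2, SPRED1 and SPRED2. DUSP6, an ERK phosphatase, was at 86.0 and 92.0 for T47D TLE3 and had a TLE3 peak at 39.7 in MDA-MB-453 replicate 1 alone and none in SKBR3 replicate 1. All 8 held a FOXA1 site of MDA-MB-453 and 7 one of SKBR3. ERBB receptors, ligands and adapters had 7 of 18 (38.9%), namely ERBB2, ERBB3, ERBB4, AREG, BTC, GRB2 and PIK3CA. ERBB2 is amplified in SKBR3, and its site (chr17:39686947-39687382) was at 54.9 and 70.3 for T47D TLE3, 91.0 and 56.7 for SKBR3 TLE3, 96.0 and 95.2 for SKBR3 FOXA1, and 18.6 for MDA-MB-453 TLE3 replicate 1 alone. Copy number of the locus was not measured here, and its part in the ERBB2 values was not tested. The IGF system had 4 of 13 (30.8%), IGF1 and IGF1R with the adapters IRS1 and IRS2.

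Epithelial ETS, grainyhead and OVOL factors had 11 of 17 (64.7%): ELF1, ELF3, ELF5, EHF, SPDEF, ETV5, ETV6, GRHL1, GRHL2, OVOL1 and OVOL2. OVOL2, a zinc-finger repressor that keeps cells epithelial, had a peak in all 12 libraries (chr20:18058521-18059530), with T47D TLE3 at 87.6 and 96.2 and MDA-MB-453 TLE3 at 93.1 and 84.9. GRHL1 (chr2:9951030-9952202) was at 88.4 and 93.9 for T47D TLE3, with MDA-MB-453 TLE3 at 4.0 in replicate 1 alone and SKBR3 FOXA1 at 0.9 in replicate 1 alone. Claudins and other epithelial junction genes had 16 of 32 (50%), among them CLDN3, CLDN4, CLDN8, OCLN, CTNNA1, DSP, JUP and the splicing regulators ESRP1 and ESRP2. ESRP2 (chr16:68233888-68236595) was at 97.8 and 98.7 for T47D TLE3, 93.0 and 88.5 for MDA-MB-453 TLE3 and 94.6 and 45.4 for SKBR3 TLE3. Simple keratins had 4 of 8 (50%), KRT8, KRT18, KRT19 and KRT80. Taken as whole families by symbol, claudin (CLDN) genes had 3 of 24 (12.5%) and keratin (KRT) genes 8 of 55 (14.5%). Both are near the 13.9% of all protein-coding genes, so the list shares do not hold for these families.

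AP-2, forkhead and GATA factors had 8 of 23 (34.8%), namely TFAP2A, TFAP2C, FOXA1, FOXO3, FOXP1, FOXJ3, GATA3 and GATA6. Corepressors and deacetylases had 11 of 28 (39.3%). They were TLE1, TLE3, HDAC4, HDAC5, HDAC7, RCOR3, KDM1A, TBL1X, BCOR, ZNF703 and ZNF503, and the class I deacetylases HDAC1, HDAC2 and HDAC3 were not among them. TBL1X, a subunit of the NCOR complex (chrX:9462707-9463740), was at 91.9 and 97.2 for T47D TLE3 and 99.9 for T47D FOXA1 in both replicates, and at 68.1 and 66.9 for MDA-MB-453 TLE3. TLE1 (site chr9:81689208-81690987), whose CpG-rich start is printed above, was at 84.5 and 92.0 for T47D TLE3, 55.7 and 26.4 for MDA-MB-453 TLE3, 72.6 and 26.9 for SKBR3 TLE3, and 5.2 and 25.4 for SKBR3 FOXA1. Of the 11, 8 held a FOXA1 site of MDA-MB-453 and 4 one of SKBR3.

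The pathways whose factors recruit Groucho proteins had lower shares than the luminal and immediate early lists. NOTCH and HES genes had 7 of 24 (29.2%), namely NOTCH1, DLL4, HES1, HES4, HEY1, BHLHE40 and LFNG. WNT and TCF genes had 9 of 34 (26.5%), with TCF7 and TCF7L2 among the DNA-binding factors that carry TLE proteins and AXIN2 and RNF43 among the feedback inhibitors. TCF7, a T cell and WNT factor, was at 87.3 and 95.7 for T47D TLE3 and only 16.1 and 17.1 for T47D FOXA1. TCF7L2 had the opposite order within its own lists, with 29.0 and 65.5 for TLE3 and 96.5 and 97.5 for FOXA1. TGF-beta and EMT genes had 5 of 25 (20%), SMAD2, SMAD4, SMAD6, SKIL and ID2. RUNX factors and partners had 1 of 7, CBFB.

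A further 7 lists hold genes with general cell functions. Cell cycle genes had 9 of 30 (30%), SR proteins and splicing factors 8 of 22 (36.4%), chromatin remodelers and histone modifiers 7 of 26 (26.9%), and secretory pathway genes 5 of 22 (22.7%). Glycolytic and other housekeeping enzymes had 6 of 28 (21.4%), mitochondrial ribosome and respiratory chain genes 6 of 34 (17.6%), and cytosolic ribosomal proteins 7 of 40 (17.5%). Most of these genes did have a T47D FOXA1 site at an end. Such a site was at an end of 62.5% of ribosomal protein genes, 64.7% of the mitochondrial genes, 77.3% of the secretory pathway and splicing genes, 73.3% of cell cycle genes, 57.1% of the glycolytic and other enzymes and 53.8% of the chromatin genes, with 79.2% of luminal and 73.1% of immediate early genes. For each of these 7 lists the gap to the luminal list was smaller by FOXA1 than by both factors.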

How the data were processed

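Peak lists of 12 ChIP-seq libraries (3 lines, FOXA1 and TLE3, 2 replicates each) were used. Per the submitters' processing notes, the authors used Trim Galore, BWA 0.7.5a, SAMtools and MACS2 on hg38. For the caller's settings and controls, the sources used here say nothing. Each deposited list gives chromosome, start, end, name and a peak score, the authors' own value per peak, whose quantity is not named. Its lowest value was 2.00 to 2.04, and it was used only for percentiles within a list. Of all peaks, 15 outside chromosomes 1 to 22 and X were left out.

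Peaks of a group's 2 replicates were merged, and a merged region holding both is a site. Regions overlap if they share 1 bp. A library overlaps a site when a peak of it does. Gene ends came from RefSeq (GRCh38.p14), strand and promoter windows from the RefSeq promoter table. A list gene has a gene-end site of a line when a site of that line has its centre within 1 kb. The members, the 24 gene lists (564 entries, all matched, 2 by synonym) and the tests were chosen with earlier results of these data known.

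Shares were compared over libraries by exact two-sided sign-flip permutation, and between factors by permuting labels within lines over 36 arrangements, with Benjamini-Hochberg adjustment over 5 tests and a threshold of 0.05. The scripts were tested on simulated data (python 3.11.15, pandas 2.3.3, scipy 1.17.1). By rule the text names the 20 highest sites by mean T47D TLE3 percentile, the 10 highest with both factors in all lines (by mean percentile over the TLE3 lists), the 10 highest with no peak in the other lines, of each list up to 4 genes with a site and 3 without, the highest 5 at starts, far ends and ends of 2 or more genes, the sites nearest the 1 kb limit, and FOXA1, TLE3, ESR1, GATA3, SPDEF, XBP1, KRT8 and TFF1. Some are not reported here, and further list genes were named after their values were seen. Alternatives were the upper 50% of each list, lists of 21149 peaks, 50% overlap, 250 bp and 3 kb windows, all annotated genes, sites of either T47D replicate, comparison sites over 10 kb from genes, weighting on percentile or width, each library left out, and a replicate block. Rankings and counts of sites without the library labelled SKBR3 TLE3 replicate 2 were added after seeing the data.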

Additional observations from a re-analysis of the deposited data

Results flagged for a closer look

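The library labelled SKBR3 TLE3 replicate 2 lay far from the other 3 TLE3 libraries in both contrasts. Its gene-end share exceeded its share at the other T47D sites by 49.6 percentage points, while the others were between -28.0 and -15.5, and its gap to the nearest was 0.839 of the whole range. For start against far-end sites it stood at 39.5 percentage points, with a gap of 0.864 of the range. About 1 in 20 groups of 4 is picked out this way by chance, and the 2 values come from the same library. In the plot of shares by distance, this library is the TLE3 library whose share falls in every bin from gene ends outward.

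FOXA1 differed in direction between the other lines. The gene-end share minus the share at other sites averaged 3.89 percentage points in MDA-MB-453 and -10.2 in SKBR3, a gap of 14.1 with both libraries of each line on the same side. For start against far-end sites the line means were 5.83 and -15.6, a gap of 21.4. Neither difference was tested. With every list cut to its 21149 highest scores the opposition in the first contrast was lost, at -1.51 and -4.53 in MDA-MB-453 and -2.32 and -6.06 in SKBR3.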

How the results depend on the processing

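The number of gene-end sites moved with the definition. It was 782 (835 genes) in the upper 50% of each list, 1364 (1462 genes) within 250 bp, 3841 within 3 kb, and 6816 (6961 genes) with a peak of either T47D replicate. With each T47D library left out it ranged from 2515 to 5199 sites and from 2694 to 5362 genes, highest without T47D TLE3 replicate 1.

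The mean TLE3 difference between gene-end and other sites turned positive when weighted on T47D TLE3 percentile (0.90) or on T47D FOXA1 percentile (0.48), and ranged from -22.9 to 2.93 percentage points with each library left out, with values of 2.04 and 2.93 without MDA-MB-453 TLE3 replicate 1 and replicate 2. The FOXA1 difference became 4.40 when weighted on T47D FOXA1 percentile, and ranged from -8.43 to -0.65 with each library left out. TLE3 minus FOXA1 became 3.95 with either T47D replicate and 1.28 when weighted on TLE3 percentile. It ranged from -17.9 to 14.6 with each library left out, at 14.6 without SKBR3 TLE3 replicate 1 and 3.04 without T47D FOXA1 replicate 2. None of these tests could pass 0.05, since the smallest p possible was 0.125 for the sign-flip and 0.0556 for the permutation of factor labels. The cause of the sign changes was not tested. With the library labelled SKBR3 TLE3 replicate 2 set aside, the TLE3 difference ran from -29.4 to -15.4 over 16 settings, with all 3 libraries negative in each of the 16. Both SKBR3 FOXA1 libraries were negative in 16 and both MDA-MB-453 FOXA1 libraries positive in 11, while with lists of equal length both were negative. Forkhead letters were in 7.5% of windows whose site centre was within 250 bp of the start.

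With a replicate block, TLE3 minus FOXA1 was -1.65 percentage points (exact sign-flip permutation p = 0.875, where the smallest possible is 0.125). Over the gene-end sites, the replicate 1 minus replicate 2 difference in peak presence was compared between TLE3 and FOXA1 by correlation. The correlation was -0.0629 in MDA-MB-453 and 0.0151 in SKBR3. Presence or absence of a peak is too coarse to decide whether same-numbered libraries were paired, so pairing remains unknown. Depth is unknown, so a missing peak does not show that a factor is absent, and shares from short lists may be low for that reason.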

Other observations

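Gene families were counted by the shared stem of their symbols, over the 96 stems with 20 or more protein-coding genes. Set against 13.9% of all genes, the highest shares with a T47D gene-end site of both factors were in ABHD hydrolases (8 of 22, 36.4%), ZBTB zinc-finger repressors (14 of 42, 33.3%), genes of the CDK stem, not all of them kinases (9 of 28, 32.1%), CEP centrosome genes (12 of 39, 30.8%), ZFP zinc-finger genes (6 of 21, 28.6%) and NR genes, mostly nuclear receptors (7 of 25, 28.0%). ZNF genes stood at 67 of 517 (13.0%) and SLC transporters at 61 of 386 (15.8%). Olfactory receptor genes had 2 of 392 (0.510%) and keratin-associated proteins 2 of 94 (2.13%). Mitochondrial ribosome genes of the MRPL stem had 2 of 49 (4.08%) although 55.1% had a T47D FOXA1 site at an end, and ZSCAN genes had 0 of 21 although 11 of them had one. The stems were read after the values were seen and no test was made.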
